A study of Mus musculus with 31 samples.

Results

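Enzymes that write or erase chemical marks on chromatin, with a few close relatives, were followed in mouse liver through a final fast and through earlier fasts. The set holds every measured gene whose annotated symbol begins with Hdac, Sirt, Kat, Kmt, Setd, Ezh, Prmt, Kdm, Dnmt or Tet followed by a number, which gave 75 of the 22180 genes measured. It comprised 11 Hdac, 7 Sirt, 7 Kat, 8 Kmt, 8 Setd, 2 Ezh, 7 Prmt, 17 Kdm, 5 Dnmt and 3 Tet genes. Of the 75, 74 are protein-coding enzymes or relatives of enzymes, such as Dnmt3l, a cofactor with no catalytic activity. The remaining gene, Dnmt3aos, is a noncoding RNA transcribed opposite Dnmt3a. Some members bear a chromatin enzyme's name but act mainly elsewhere, for example Setd3, which methylates actin, and Sirt3, which works in mitochondria. Kat14, Kdm2b and Prmt2 were measured only by probe sets annotated to several genes and are not among the 75.

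RNA from 31 livers, 1 per array, was measured on Affymetrix whole-transcript arrays, and all values are RMA signals on a log2 scale, where a step of 1 is a 2-fold change. All mice were male, on a C57BL/6 background, 3 to 4 months old and sampled in the morning, and no altered allele or drug is named for any group. One cohort was fed ad libitum over 8 weeks and then sampled fed (n = 8) or after its first 16 h fast (n = 8), and the other had been through 2 fasts of 16 h in that time and was likewise sampled fed (n = 8) or after a further 16 h fast (n = 7). The labels give 24 mice for the cohort fed ad libitum, of which 16 arrays are described here, and name no batch, litter or cage. Array medians ran from 2.01 to 2.07 and arrays correlated at r = 0.976 to 0.993 over genes. The 7 measured hepatocyte markers had mean signals of 8.59 to 13.0. Averaged over histories, 3 rose and 1 fell in the final fast (adjusted p under 0.05, limma), against 9.79% and 9.36% of all genes. All 7 were brighter than the median gene, and of genes at or above that level 35.8% passed. With no earlier fast 3 rose and 1 fell, and with 2 earlier fasts 2 rose and 0 fell. These are whole livers, so fewer cells of a type and less RNA per cell cannot be told apart.

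Chromatin is regulated by small groups added to histone tails and to DNA. Acetyl groups, added by the Kat enzymes from acetyl-CoA and removed by the zinc-dependent Hdac enzymes and the NAD-dependent sirtuins, loosen the contact of histones with DNA. Methyl groups come from S-adenosylmethionine and are placed on lysines by the Kmt, Setd and Ezh enzymes, on arginines by the Prmt enzymes and on cytosines by the Dnmt enzymes. The Kdm and Tet enzymes remove or oxidise them with 2-oxoglutarate, apart from the flavin-dependent Kdm1 pair. Because these cosubstrates are metabolites, and because sirtuins and class IIa deacetylases take part in the fasting programme of the liver, the family is often discussed in connection with feeding state.

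Promoter sequence is shown for 5 of the members around which the results turn, each with a single RefSeq window. Dnmt1, which also passed under both histories, has several windows and is not shown. Hdac11 and Setd6 fell and Prmt5 rose in the final fast under both histories. Ezh1 and Ezh2, alternative catalytic subunits of the Polycomb complex PRC2, moved in opposite directions in the average over histories and passed under neither history alone. Each line is the 250 bases before the RefSeq start in GRCm38.p6, read 5′ to 3′ on the strand of the gene, with every CG dinucleotide, the site at which Dnmt enzymes methylate, in capitals. Hdac11 lies at chr6:91156565-91156814 on the plus strand and Setd6 at chr8:95715663-95715912 on the plus strand. Prmt5 lies at chr14:54517471-54517720, Ezh1 at chr11:101226464-101226713 and Ezh2 at chr6:47595031-47595280, all on the minus strand.
Hdac11: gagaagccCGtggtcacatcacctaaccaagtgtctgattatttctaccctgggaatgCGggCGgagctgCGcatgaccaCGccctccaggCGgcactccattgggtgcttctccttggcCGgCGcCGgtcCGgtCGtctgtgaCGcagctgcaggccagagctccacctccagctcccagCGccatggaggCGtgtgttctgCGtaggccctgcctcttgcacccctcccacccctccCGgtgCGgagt
Setd6: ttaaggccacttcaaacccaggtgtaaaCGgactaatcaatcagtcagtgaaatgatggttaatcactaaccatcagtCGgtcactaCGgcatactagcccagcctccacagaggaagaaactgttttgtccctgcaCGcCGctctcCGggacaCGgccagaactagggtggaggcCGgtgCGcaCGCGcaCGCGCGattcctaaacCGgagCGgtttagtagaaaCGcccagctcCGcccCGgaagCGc
Prmt5: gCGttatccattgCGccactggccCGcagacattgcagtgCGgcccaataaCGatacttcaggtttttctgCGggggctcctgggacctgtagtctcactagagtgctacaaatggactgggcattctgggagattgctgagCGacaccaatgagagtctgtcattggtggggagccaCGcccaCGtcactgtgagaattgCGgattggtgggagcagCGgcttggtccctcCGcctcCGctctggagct
Ezh1: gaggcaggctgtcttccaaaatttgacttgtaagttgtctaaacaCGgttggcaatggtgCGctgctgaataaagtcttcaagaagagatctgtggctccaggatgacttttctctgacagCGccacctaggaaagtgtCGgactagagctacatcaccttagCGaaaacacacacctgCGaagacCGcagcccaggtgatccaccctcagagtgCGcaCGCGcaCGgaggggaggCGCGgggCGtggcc
Ezh2: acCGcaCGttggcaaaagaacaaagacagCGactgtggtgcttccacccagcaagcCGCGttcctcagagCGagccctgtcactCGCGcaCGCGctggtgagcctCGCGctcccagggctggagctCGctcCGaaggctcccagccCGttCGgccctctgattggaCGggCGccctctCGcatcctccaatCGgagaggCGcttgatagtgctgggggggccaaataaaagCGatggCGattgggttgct

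These stretches held 17 CG dinucleotides for Hdac11, 20 for Setd6, 13 for Prmt5, 14 for Ezh1 and 23 for Ezh2. RefSeq windows of 300 bases, from 250 before to 50 after the start, were at hand for 63 of the 75 members, 87 windows in all. The median window of a member held 21 CG dinucleotides, against 7 over all 32851 windows. Among members, the medians were 20.5 for windows of genes that changed in the final fast and 21 for windows of those that did not pass. Short motifs, 4 in all, were searched on both strands. The cyclic AMP response element TGACGTCA was in 1.15% of member windows (1 of 87) and 1.79% of all windows. The FoxO site GTAAACA was in 1.15% (1 of 87) and 3.65%. The nuclear receptor core site AGGTCA was in 13.8% and 16.3%, and the E-box CACGTG in 10.3% and 7.15%. None of the 4 motifs was in the windows of the 5 genes printed, which says only that these letters are not in these windows.

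The final fast changed 22 of the 75 genes, each by less than 1.5-fold. Averaged over the histories, these 22 members passed limma's test at an adjusted p under 0.05, of which 13 rose and 9 fell. That is 29.3% of the members, where 19.1% of all genes tested passed (9.79% higher and 9.36% lower). Nearly all members, 69 of 75, lay at or above the median gene's mean signal. That signal was 2.26, a low level not far above the array medians of 2.01 to 2.07. Of these 69, 22 passed (31.9%), and of all genes at or above that level 35.8% passed, so the 2 shares lay near each other. No member of the 6 dimmer ones passed, against 2.52% of dim genes. Changes ran from -0.52 for Hdac11 to 0.43 for Kdm6b, with a median of 0.02 over the members and -0.00 over all genes. None reached 2-fold, which 1.35% of all genes did, and the 95% confidence interval of every member lay inside 2-fold.

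**Figure D1:**
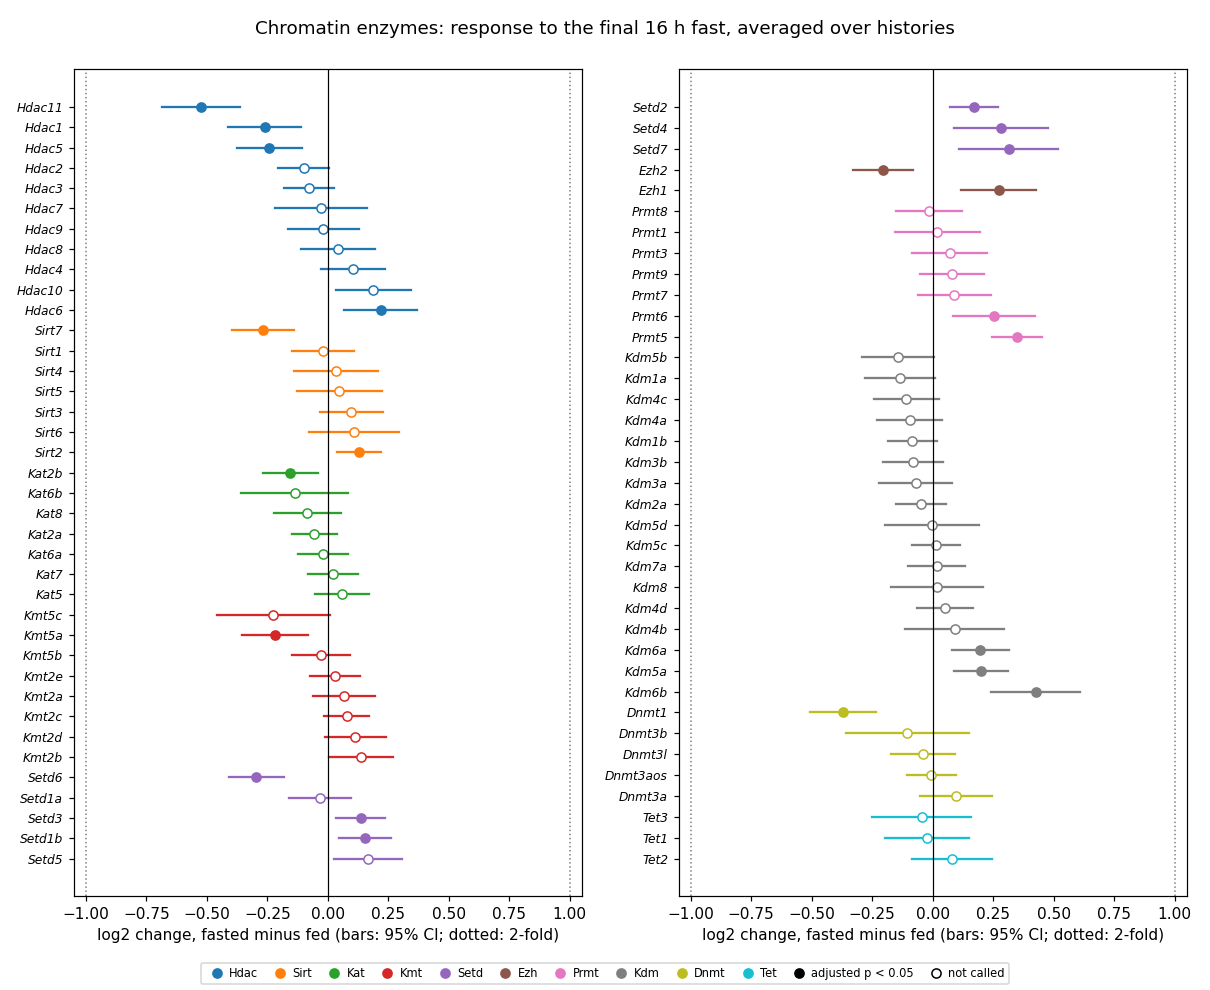
Log2 change in the final fast (fasted minus fed, averaged over 0 and 2 earlier fasts) for each of the 75 genes, grouped and coloured by family, with bars for the 95% confidence interval and dotted lines at 2-fold. Filled points are the 22 genes with an adjusted p under 0.05, and every bar lies between the dotted lines, from Hdac11 at -0.52 to Kdm6b at 0.43.

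Among the deacetylases, 4 of 11 Hdac genes changed, 1 up and 3 down. Beside this and each family count below, 19.1% of all genes and 35.8% of those at or above the median signal passed. The largest fall of all 75 genes was that of Hdac11, the only class IV deacetylase, which also removes fatty acyl groups from proteins. Its signal was 6.04, 6.28 and 6.37 (lowest, median and highest) in mice fed after no earlier fast and 5.18, 5.72 and 6.15 in those fasted. After 2 earlier fasts it was 6.01, 6.31 and 6.57 fed and 5.48, 5.76 and 6.13 fasted. With no earlier fast 7 of 8 fasted mice lay below every fed mouse, and with 2 earlier fasts 6 of 7 did, so the groups overlapped by a single fasted mouse each. Averaged over histories, Hdac11 fell by 0.52 (SE 0.079, adjusted p = 3.26e-06, limma), which means that its signal fell by 30.5%. Its other probe set, with a mean signal of only 2.07, changed by -0.05, and the mean of both probe sets gives a change of -0.29.

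Hdac1, the class I catalytic subunit shared by the NuRD, Sin3 and CoREST complexes, fell by 0.26 (SE 0.074, adjusted p = 0.00917). Hdac5, a class IIa enzyme whose entry into the nucleus is controlled by phosphorylation, fell by 0.24 (SE 0.066, adjusted p = 0.0067). Hdac6, a largely cytoplasmic enzyme that acts on tubulin, rose by 0.22 (SE 0.074, adjusted p = 0.0326). The Hdac6 call was lost when any of 8 arrays was left out singly. Hdac3, the deacetylase of the NCoR complex, changed by -0.08 (SE 0.050, adjusted p = 0.352), and the 7 Hdac genes that did not pass lay between -0.10 and 0.19.

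Of the 7 sirtuins, Sirt7 fell and Sirt2 rose, where 19.1% of all genes passed. Sirt7, a nuclear and nucleolar deacylase, had signals of 4.99, 5.44 and 5.65 fed and 4.89, 5.06 and 5.34 fasted with no earlier fast, and 5.29, 5.56 and 5.65 fed and 5.14, 5.21 and 5.58 fasted with 2. All 8 fasted mice of the former cohort lay below the fed median, but only 1 below the lowest fed mouse, while 4 of 7 of the latter cohort lay below every fed mouse. Sirt7 fell by 0.27 (SE 0.063, adjusted p = 0.00145). Sirt2, a mainly cytoplasmic deacetylase, rose by 0.13 (SE 0.046, adjusted p = 0.0438). It is named after its value was seen, and its call was lost in 18 of 31 fits that each left out 1 array.

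Sirt1, the sirtuin best known for acting on gluconeogenic regulators in fasting, showed no detectable change in its mRNA. Its signal ran from 4.50 to 5.27 (median 5.00) fed and 4.79 to 5.04 (median 4.89) fasted with no earlier fast, and 4.77 to 5.22 (median 4.99) fed and 4.85 to 5.40 (median 4.99) fasted with 2. The groups overlapped throughout, with a change of -0.02 (95% interval -0.15 to 0.11, adjusted p = 0.906). Sirt3, the main mitochondrial deacetylase, changed by 0.10 (95% interval -0.03 to 0.23, adjusted p = 0.363), and the 5 sirtuins that did not pass lay between -0.02 and 0.11.

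Of the 7 acetyltransferases of the Kat family only Kat2b, known as PCAF, passed, with a fall of 0.16 (SE 0.056, adjusted p = 0.0495). That adjusted p stands at the threshold, and the call was lost in 20 of 31 fits without 1 array. The 6 other Kat genes changed by -0.14 to 0.06.

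Among the lysine methyltransferases, 6 of 8 Setd genes passed, 5 up and 1 down, where 19.1% of all genes and 35.8% of those at or above the median signal did. Setd6, a methyltransferase known for modifying the NF-kappaB subunit RelA, was the one that fell. With no earlier fast its signal was 6.03, 6.19 and 6.39 fed and 5.76, 5.91 and 6.13 fasted, and with 2 it was 6.00, 6.36 and 6.61 fed and 5.79, 6.08 and 6.21 fasted. Of the fasted mice, 7 of 8 and 3 of 7 lay below the lowest fed mouse of their cohort, and all 15 lay below its median. The fall was 0.30 (SE 0.056, adjusted p = 0.00012).

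Setd2, which trimethylates histone H3 in the wake of RNA polymerase, rose by 0.17 (SE 0.049, adjusted p = 0.0108). Setd7, a monomethyltransferase of histone H3 and many other proteins, rose by 0.31 (SE 0.101, adjusted p = 0.0237), and Setd4 by 0.28 (SE 0.095, adjusted p = 0.0328). Both have low signals, with group medians of 2.94 to 3.32 for Setd7 and 2.76 to 3.14 for Setd4. Setd1b, a methyltransferase of promoter-bound COMPASS complexes, and Setd3 rose by 0.15 (adjusted p = 0.0381) and 0.14 (adjusted p = 0.0497). The Setd count of 6 became 2 without replicate 4 of the mice fasted after 2 earlier fasts. It was 3 without replicate 5 or 6 of the mice fed after no earlier fast, or without replicate 5 of the mice fasted then. Setd6 and Setd2 kept their calls in every fit without 1 array.

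Of the 8 Kmt genes, Kmt5a, which adds the first methyl group to the tail of histone H4, fell by 0.22 (SE 0.067, adjusted p = 0.0174). The 7 others, among them the mixed-lineage leukaemia type enzymes Kmt2a to Kmt2d, changed by -0.23 to 0.14 and did not pass. The lowest of these, Kmt5c, changed by as much as Kmt5a but had one of the widest spreads of the 75 genes, with an SD within groups of 0.34. Kmt5c is named after its value was seen.

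The 2 Ezh genes both passed, in opposite directions. Ezh1 had signals of 5.68, 5.93 and 6.39 fed and 5.98, 6.23 and 6.56 fasted with no earlier fast, and 5.60, 5.94 and 6.27 fed and 5.79, 6.23 and 6.40 fasted with 2. Ezh2 had signals of 3.98, 4.26 and 4.34 fed and 3.71, 3.99 and 4.39 fasted with no earlier fast, and 4.18, 4.40 and 4.65 fed and 3.98, 4.16 and 4.59 fasted with 2. Fed and fasted mice overlapped for both genes, while the fasted medians of Ezh1 were the higher ones and those of Ezh2 the lower ones under each history. Averaged over histories, Ezh1 rose by 0.27 (SE 0.077, adjusted p = 0.00849, limma) and Ezh2 fell by 0.21 (SE 0.061, adjusted p = 0.0139, limma). Within a single history, Ezh1 and Ezh2 did not pass. The test of the difference between these genes was not made. The PRC2 partners Eed and Suz12, named after their values were seen, fell by 0.19 (adjusted p = 0.0172) and 0.16 (adjusted p = 0.0217). Neither passed within a history. Of further PRC2 partners, also named after their values were seen, Rbbp4 fell under both histories (-0.54 with no earlier fast and -0.49 with 2). Rbbp7 (0.03 and -0.02) and Jarid2 (-0.23 and -0.05) passed under neither. No test was made over these partners, and 35.8% of all genes at or above the median signal passed in the averaged fast.

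Ezh2, Dnmt1 and Kmt5a are known for higher expression in dividing cells, and some cell cycle genes fell as well. Of 20 measured, 9 of them dimmer than the median gene, 4 fell and 0 rose. For this count and those of the markers below, 9.36% of all genes fell and 9.79% rose. With no earlier fast 3 of the 20 fell (median -0.16), and with 2 earlier fasts 0 did (median -0.07). The median change of the 20 averaged over histories was -0.13, the largest falls being Ccnd1 (-0.46), Mcm3 (-0.40) and Mcm6 (-0.35). Their mean signal per array ran from 3.01 to 3.14 fed and 2.79 to 3.01 fasted with no earlier fast, and from 2.87 to 3.16 fed and 2.86 to 3.00 fasted with 2. Kupffer cell markers moved as well, with 10 of 11 falling (7 with no earlier fast and 3 with 2), 0 rising and a median of -0.57 (Adgre1 -0.76). Their mean signal ran from 5.15 to 6.40 fed and 4.76 to 5.86 fasted with no earlier fast, and from 4.88 to 6.06 fed and 4.72 to 5.64 fasted with 2, with no marker under the median gene's signal. Of 9 stellate markers 3 fell and 1 rose, with mean signals of 5.21 to 5.62 fed and 4.90 to 5.37 fasted with no earlier fast, and 5.33 to 5.71 fed and 5.08 to 5.56 fasted with 2. Of 9 sinusoidal endothelial markers 2 fell and 1 rose, with mean signals between 6.43 and 7.07 in all groups. Of 8 lymphocyte markers 1 fell, none of 5 cholangiocyte or 7 neutrophil and monocyte markers passed, and 7 of the 8 and all 7 of these blood cell markers were dimmer than the median gene. The part of cell division or of these cell types in the members' changes was not tested.

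**Figure D2:**
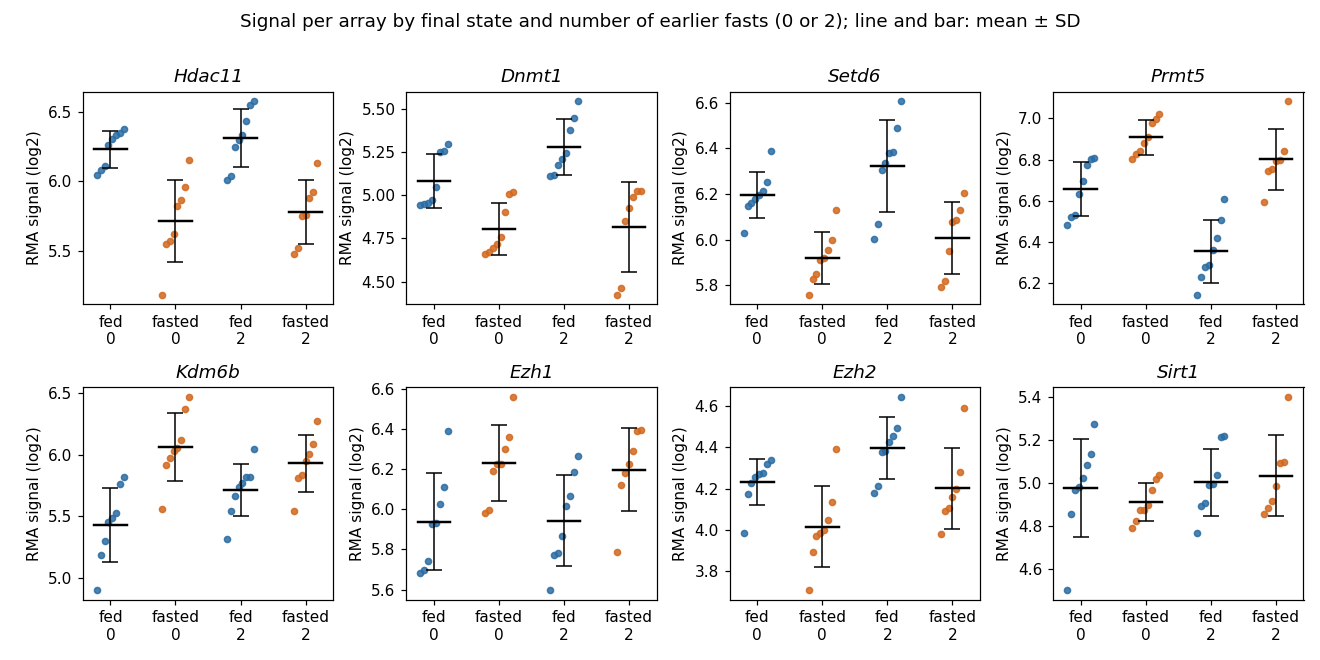
RMA signal (log2) per array for Hdac11, Dnmt1, Setd6, Prmt5, Kdm6b, Ezh1, Ezh2 and Sirt1, in mice fed (blue) or fasted (orange) after 0 or 2 earlier fasts, with the mean and SD of each group (n = 8, 8, 8 and 7). Each panel has its own axis, which does not start at 0. Dnmt1 with 2 earlier fasts is the only set in which fed and fasted mice do not overlap, and the 4 groups overlap for Sirt1.

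Of the 7 arginine methyltransferases 2 rose and none fell, where 9.79% of all genes rose and 9.36% fell. Prmt5, the main enzyme of symmetric arginine dimethylation, had signals of 6.48, 6.67 and 6.81 fed and 6.80, 6.90 and 7.02 fasted with no earlier fast. After 2 earlier fasts it had 6.15, 6.33 and 6.61 fed and 6.60, 6.79 and 7.08 fasted. In each cohort a single fasted mouse lay within the fed range, with 7 of 8 and 6 of 7 above every fed mouse. Prmt5 rose by 0.35 (SE 0.051, adjusted p = 2.11e-06), a rise of 27.3% in signal. Prmt6, which makes asymmetric dimethylarginine, rose by 0.25 (SE 0.084, adjusted p = 0.0283), a call lost in 5 of 31 fits without 1 array, and the 5 other Prmt genes changed by -0.02 to 0.09.

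Of the 17 lysine demethylases 3 rose and none fell, where 19.1% of all genes passed (9.79% higher and 9.36% lower). Kdm6b and Kdm6a, known as JMJD3 and UTX, remove the Polycomb methyl mark from histone H3. Kdm6b had signals of 4.90, 5.47 and 5.82 fed and 5.56, 6.05 and 6.47 fasted with no earlier fast, where 7 of 8 fasted mice lay above every fed mouse. With 2 earlier fasts it had 5.32, 5.75 and 6.05 fed and 5.54, 5.95 and 6.28 fasted, where 2 of 7 did. Kdm6b rose by 0.43 (SE 0.090, adjusted p = 0.000465) over both histories, and its second, dim probe set (mean 1.78) changed by -0.04. The mean of its probe sets gives a change of 0.20, still past the threshold.

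Kdm6a had signals of 5.95, 6.31 and 6.49 fed and 6.03, 6.35 and 6.60 fasted with no earlier fast, and 5.87, 6.09 and 6.26 fed and 6.23, 6.41 and 6.64 fasted with 2. Only 1 of 8 fasted mice lay above the fed range in the former cohort, and 6 of 7 in the latter. Kdm6a rose by 0.20 (SE 0.058, adjusted p = 0.0131) on average, and so did Kdm5a, which removes methyl groups at active promoters (0.20, SE 0.055, adjusted p = 0.00747). The 14 other Kdm genes changed by -0.14 to 0.09.

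In DNA methylation, Dnmt1, which copies methylation onto the new strand after replication, was the only 1 of 5 Dnmt genes that passed. Its signal was 4.94, 5.01 and 5.30 fed and 4.66, 4.74 and 5.02 fasted with no earlier fast, and 5.11, 5.23 and 5.54 fed and 4.42, 4.93 and 5.03 fasted with 2. In the latter cohort all 7 fasted mice lay below every fed mouse, which no other member did under either history (4.37% of all genes were apart there, and 4.28% with no earlier fast). Dnmt1 fell by 0.37 (SE 0.067, adjusted p = 5.2e-05), which means that its signal fell by 22.7%. The de novo enzyme Dnmt3a changed by 0.10 (95% interval -0.05 to 0.25, adjusted p = 0.445), and the 4 Dnmt genes that did not pass lay between -0.10 and 0.10. None of the 3 Tet genes passed, the smallest p being that of Tet2 with a change of 0.08 (adjusted p = 0.612).

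The final fast was also tested within each history, in sets of mice that share no array. The shares given beside these counts are over all genes. Those over genes at or above the median signal, where nearly all members lie, were not computed within a history. With no earlier fast 8 members passed (10.7%, against 12.5% of all genes), 4 up (against 6.25%) and 4 down (against 6.23%), and with 2 earlier fasts 7 passed (9.33%, against 11.6%), 3 up (against 6.06%) and 4 down (against 5.52%). Hdac11, Dnmt1, Setd6 and Prmt5 passed under both, 5.33% of members where 8.25% of all genes did so in the same direction. With no earlier fast the others were Kdm6b (0.63), Hdac10 (0.36), Setd2 (0.21) and Sirt7 (-0.31), and with 2 they were Kdm6a (0.34), Kdm5a (0.26) and Hdac1 (-0.33). Each of these had the same sign under the other history. So did 2701 of the 2768 genes that passed with no earlier fast and 2506 of the 2569 that passed with 2. In all, 53 of 75 members had the same sign under both histories (70.7%, against 65.8% of all genes). The correlation of the responses was r = 0.68 over the 75 members and 0.85 over all genes, a description across genes that share arrays within each axis. Without replicate 8 of the mice fasted after no earlier fast the first count is 5, with Hdac10, Setd2 and Dnmt1 no longer past the threshold, and the second count is 5 without replicate 5 or replicate 8 of the mice fed after 2. The Dnmt1 call with no earlier fast (-0.28, adjusted p = 0.0412, limma) was lost without any of 9 arrays left out singly. Hdac10 and Setd2 with no earlier fast, and Hdac1 and Kdm5a with 2, also lost their calls in several such fits. Hdac11, Setd6 and Prmt5 kept theirs under both histories in every such fit.

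**Figure D3:**
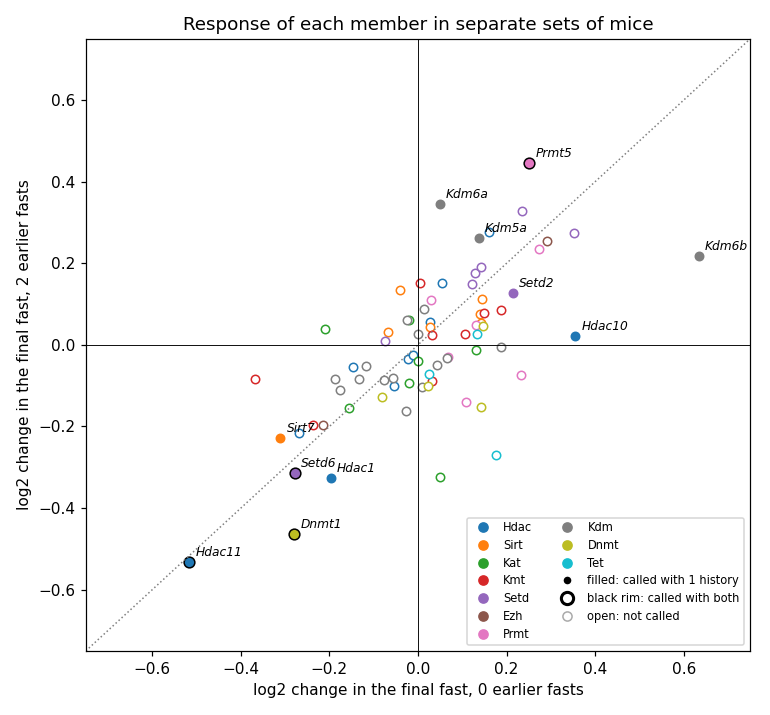
Log2 change of each of the 75 genes in the final fast with 0 earlier fasts (horizontal) and with 2 (vertical), coloured by family, with a dotted line of equal change. Filled points passed an adjusted p under 0.05 under 1 history and black-rimmed points under both. Hdac11, Dnmt1, Setd6 and Prmt5 carry the black rim, Kdm6b lies far below the line (0.63 and 0.22) and Kdm6a above it (0.05 and 0.34).

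Whether the response itself depended on earlier fasts was tested as an interaction, and 0 of 75 members and 0 of 22180 genes passed in limma. At an unadjusted p under 0.05, 6 members (8%) and 4.61% of all genes stood. Kdm6b had a difference of -0.42 (SE 0.180, unadjusted p = 0.0264 in limma) and Kdm6a one of 0.30 (SE 0.116, unadjusted p = 0.0161), both with an adjusted p of 0.999. So a response of these demethylases that passed under 1 history only was not shown to differ between histories. Dnmt3aos had the smallest p of the 75 (difference -0.30, unadjusted p = 0.0051), and Prmt9 had a difference of -0.31. Hdac10 (-0.33) and Tet3 (-0.45) are named after their values were seen.

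Earlier fasts by themselves left no member past the threshold. In mice with 2 against 0 earlier fasts, averaged over final states, 0 of 75 members and 0 of 22180 genes passed, and the same held within fed mice and within fasted mice. The smallest adjusted p of a member was 0.835 averaged, 0.468 in fed mice and 0.866 in fasted mice. Changes ran from -0.20 for Prmt5 to 0.22 for Tet3, and the 95% interval of every member lay inside 1.5-fold in the averaged comparison.

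At an unadjusted p under 0.05, 14 of 75 members (18.7%) stood in the averaged comparison, where 5.34% of all genes did and 5.66% of genes at or above the median signal. Of the 14, 11 were higher and 3 lower after earlier fasts, against 3.04% and 2.30% of all genes. In fed mice 10 members stood (13.3%, against 5.61% of all genes) and in fasted mice 6 (8%, against 4.49%). The count of 14 ran from 10 to 15 when 1 array was left out. These counts rest on unadjusted values, were chosen after seeing the data and carry no test over the list.

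Prmt5 stood first in this comparison, with a lower signal after earlier fasts in fed mice (-0.30, SE 0.071, adjusted p = 0.468) and less so in fasted mice (-0.11, SE 0.074). Its fed signals were 6.48 to 6.81 after 0 and 6.15 to 6.61 after 2 earlier fasts, ranges that overlapped. Kdm7a, a demethylase that acts on repressive marks of histone H3, had fed signals of 5.36, 5.46 and 5.72 after 0 and 5.57, 5.72 and 5.88 after 2 earlier fasts. Its difference was 0.24 in fed mice (SE 0.080, adjusted p = 0.782) and 0.19 averaged (SE 0.058, adjusted p = 0.835). Tet3, an oxidase of methylated cytosine, had fed signals of 3.13, 3.98 and 4.56 after 0 and 3.83, 4.31 and 4.67 after 2, a difference of 0.45 (SE 0.140, adjusted p = 0.755). In fasted mice the Tet3 difference was 0.00.

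Ezh2 was higher by 0.18 averaged (SE 0.061, adjusted p = 0.891). In fasted mice the smallest p values were those of Dnmt3aos (-0.26, adjusted p = 0.866), Kmt2c (0.18) and Kat8 (0.22), the last 2 with an adjusted p of 1. The other members at an unadjusted p under 0.05 in the averaged comparison are named after their values were seen. They were Dnmt3a (0.19), Hdac5 (0.17), Kmt2a (0.16), Kmt2b (0.15), Kdm4d (0.14), Hdac2 (0.11), Setd2 (0.10) and Prmt7 (-0.16).

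**Figure D4:**
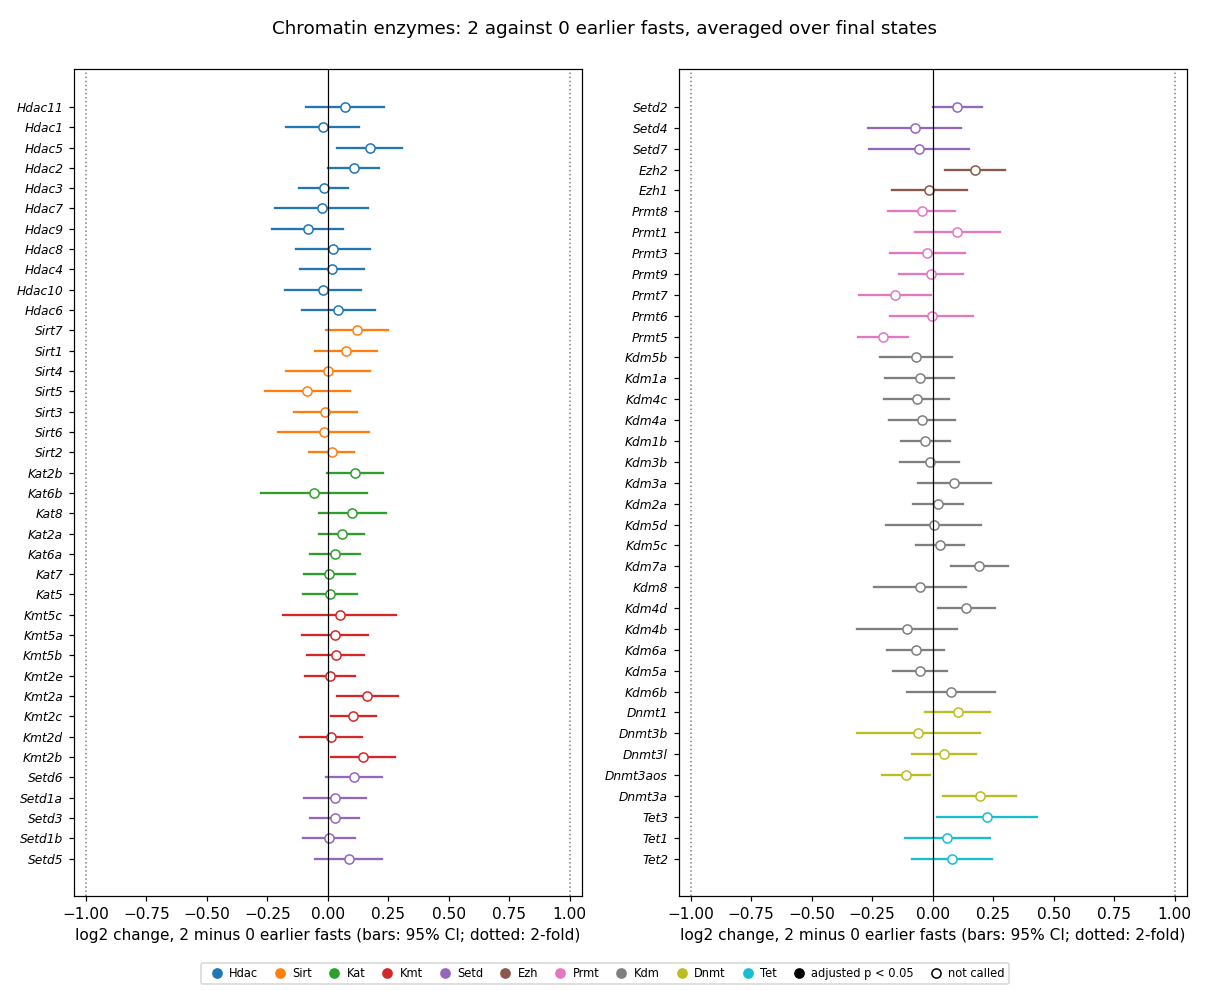
Log2 difference between mice with 2 and with 0 earlier fasts, averaged over fed and fasted mice, for each of the 75 genes, with 95% confidence intervals and dotted lines at 2-fold. No point is filled because none reached an adjusted p under 0.05, and the points lie between -0.20 (Prmt5) and 0.22 (Tet3).

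Partners and cosubstrates of these enzymes were followed through lists outside the symbol rule. For the counts that follow, 19.1% of all genes and 35.8% of those at or above the median gene's signal passed. Of the acetylation, histone methylation and DNA methylation genes, 0 of 24, 2 of 32 and 1 of 13 were dimmer than the median gene. Of 24 histone acetylation genes 5 rose and 5 fell, led by Tbl1xr1 (0.52), a subunit of the NCoR complex, its paralogue Tbl1x (-0.34), and Rbbp4 (-0.51), a histone-binding subunit of several complexes. Of 32 histone methylation genes 6 rose and 6 fell, with Dot1l, which methylates the histone H3 core, at 0.53, Nsd3 at -0.41 and Men1 at -0.30. Of 13 DNA methylation genes 2 rose and 3 fell. The rises were those of Gadd45b (2.93, adjusted p = 1.59e-18) and Gadd45g (1.90, adjusted p = 0.000765), stress genes linked to active demethylation, and the largest fall that of the cytidine deaminase Apobec1 (-0.35). Gadd45g had changes of 3.04 (adjusted p = 0.000217) with no earlier fast and 0.76 (adjusted p = 0.539) with 2, a difference that did not pass (adjusted p = 0.999). Median changes of the lists were 0.02, -0.01 and 0.03, against -0.00 over all genes.

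Some genes that make or use the cosubstrates changed by more than 2-fold, which no member did. Of 30 genes on this list 9 rose and 8 fell, where 9.79% of all genes rose and 9.36% fell. The acetyl-CoA genes Acly (-2.36, SE 0.113, adjusted p = 1.19e-17) and Acss2 (-2.13, SE 0.117, adjusted p = 3.92e-16) fell most. ATP citrate lyase and acetyl-CoA synthetase make acetyl-CoA in the cytosol and nucleus. Gamt, which uses S-adenosylmethionine to make creatine, fell by 1.35. Nnmt, which consumes it to methylate nicotinamide, rose by 1.34, and Mat1a, which makes it in hepatocytes, rose by 0.90, both named after their values were seen. By cosubstrate, 5 of 11 S-adenosylmethionine genes rose and 3 fell, 2 of 10 NAD genes rose and 1 fell, 0 of 4 acetyl-CoA genes rose and 3 fell, and 2 of 5 genes of 2-oxoglutarate rose and 1 fell. None of these genes, nor any on the other lists, passed in a comparison of earlier fasts.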

How the data were processed

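The deposited values are log2 signals that the authors made with RMA, per the submitters' processing notes. RMA subtracts background, gives all arrays the same distribution and combines the probes of a set, so a shift of most genes in 1 direction would be removed. Its version and the array annotation's genome build are not given in the sources used here. Of 41345 probe sets, 23521 had 1 symbol in the platform annotation, 1814 several and 16010 none, and 23328 matched RefSeq by Entrez identifier. A gene with several probe sets was represented by its brightest, judged by the mean of the 31 arrays (1082 genes had more than 1). No detection calls were used.

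All 22180 genes and 4 groups were fitted as group means with limma 3.58.1 in R 4.3.3, with 7 comparisons, 2-sided, Benjamini-Hochberg adjusted over all genes, and called at an adjusted p under 0.05. Figures come from matplotlib 3.10.9 (Python 3.11.15). On simulated data with independent noise, the fit was checked only for returning the mean change put in. Named members are the 12 largest called rises and falls in the averaged final fast, the smallest p of each family, the 3 smallest p of each comparison of earlier fasts and of the interaction, and Sirt1, Sirt3, Hdac3, Dnmt3a, Ezh2 and Kat2b. From each other list up to 3 called genes with the largest changes are named. Members, lists and rules were chosen with earlier results of these data known. Promoter windows are those of RefSeq on GRCm38.p6. Alternatives were fitting only the groups compared, the replicate number as a block, an intensity trend, array weights, cyclic loess, the mean of probe sets, leaving out dim genes (mean under 2.26) and leaving out each array. The number of arrays limits the precision.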

Additional observations from a re-analysis of the deposited data

Results flagged for a closer look

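In 128 groups of arrays (32 named members in 4 groups each), 6 held an array set apart from the rest of its group by more than Dixon's 95% limit, where chance gives about 1 group in 20. Ezh2 was low in replicate 7 of the mice fed after no earlier fast (3.985, next 4.17), and without it the averaged change is -0.22 in place of -0.21. Hdac5 was high in replicate 6 of the mice fasted after no earlier fast (5.99, next 5.78) and in replicate 1 of the mice fed after 2 (6.61, next 6.23). Without these arrays, each left out alone, its change is -0.26 and -0.21 in place of -0.24. Replicate 5 of the mice fasted after no earlier fast was high for both Setd2 (6.47, next 6.25) and Setd4 (3.47, next 3.15), and without it Setd2 rises by 0.15 and Setd4 changes by 0.25, the latter no longer past the threshold (adjusted p = 0.0597, limma). Setd7 was high in replicate 4 of the mice fasted after 2 earlier fasts (3.73, next 3.31), and without it the change is 0.27 in place of 0.31 (adjusted p = 0.0514, limma). No cause was tested for any of these.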

How the results depend on the processing

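The counts of members called kept within 1.5 times their main value under every alternative with all arrays. For the averaged final fast the count of 22 became 23 with the replicate block, 21 with an intensity trend, 21 with array weights, 19 with cyclic loess, 22 with the mean of probe sets and 23 without dim genes. With the replicate block the counts were 9 with no earlier fast, 9 with 2, and 0 for earlier fasts and the interaction. No strong pairing of the mice by replicate number was seen, and a weak one was not tested. Deviations of same-numbered arrays correlated at -0.06 to 0.12 (median 0.03), with 3 of 45 pairs above 0.1. Those of different-numbered arrays correlated at -0.19 to 0.18 (median -0.00), with 6 of 315 pairs above 0.1. In all, 7 of 31 arrays matched their own number best. Leaving out each array gave 16 to 21 for the averaged fast, 5 to 10 with no earlier fast (main 8), 5 to 8 with 2 (main 7), 2 to 7 for the Setd family (main 6) and 0 for earlier fasts and the interaction.

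Of the 22 called members 14 kept their call in every setting. With all arrays, the calls lost were Setd1b (adjusted p = 0.0529 with a trend and 0.0663 with cyclic loess), Setd3 (0.0653 with the replicate block and 0.0659 with cyclic loess), Sirt2 (0.0663 with cyclic loess) and Kat2b (0.0532 with array weights), all by limma. Leaving out 1 array lost Setd3 in 22 fits, Kat2b in 20, Sirt2 in 18, Setd1b in 15, Setd4 in 9, Hdac6 in 8, Prmt6 in 5 and Setd7 in 1. Among genes that never passed, leaving out 1 array turned the sign of the averaged change of Sirt1 (-0.052 to 0.0028), Kdm7a (-0.0063 to 0.037), Tet3 (-0.10 to 0.0062) and Dnmt3aos (-0.026 to 0.020). Why calls moved was not tested.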

Other observations

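The spread between mice of a group was close to that of other genes, with a median SD of 0.18 over the 75 members (0.11 to 0.37) and 0.20 over all genes. Dnmt3b, the second de novo DNA methyltransferase, had the widest spread of the members (0.37), followed by Kmt5c (0.34), which adds further methyl groups to histone H4, and Kat6b (0.32), all of them among the members that did not pass in any comparison. The median half-width of a 95% interval was 0.13 in the averaged comparisons, 0.19 within a history or a final state and 0.27 in the interaction.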
